A study of Mus musculus with 16 samples.

Results

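The genes described here belong to the LIF and STAT3 pathway of mouse embryonic stem (ES) cells. They are Lifr, Il6st, Jak1, Stat3, Socs3, Pim1, Gbx2, Bcl3 and Mcl1, which makes 9 of the 21938 protein-coding genes in the annotation. Their OCT4 peaks were chosen by position: a peak was counted for a gene if its midpoint lay inside the gene body or within 50 kb of any annotated transcript start of that gene. This rule found 33 peaks of the 26704 in the list, and 0 peaks were counted for more than 1 of the genes. The member peak farthest from a start lay 47.6 kb from Il6st, and the closest peak left out lay 52.6 kb from a start of Gbx2. Peaks are numbered within each gene from upstream to downstream in the direction of transcription.

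LIF is the cytokine that keeps mouse ES cells self-renewing in culture. It binds a receptor made of LIFR and gp130, the protein encoded by Il6st, and the JAK1 kinase attached to that receptor then phosphorylates STAT3, which enters the nucleus and binds DNA at palindromic sites. OCT4, encoded by Pou5f1, is a transcription factor of the pluripotency network that binds an octamer sequence, often next to SOX2 on a composite OCT4::SOX2 motif.

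The series profiled OCT4, the remodeler subunit BRG1 and the histone mark H3K27ac by ChIP-seq, in which DNA fragments bound by a protein are precipitated with an antibody and sequenced, in 16 libraries that form 8 groups of 2. The OCT4 libraries came from 2TS22C, an ES cell line whose Sox2 is driven by a Tet-Off promoter, so that doxycycline switches it off. There were 2 SOX2 ON libraries without doxycycline and 2 SOX2 OFF libraries with 1 µg/ml doxycycline for 26 h. All cells received serum, LIF and the kinase inhibitors CHIR99021 and PD184352, so LIF was present in every group and no comparison with its absence was possible. All values come from 1 merged list of OCT4 peaks that gives the chromosome, start and end of each peak. It names no library, so SOX2 ON and SOX2 OFF could not be compared, and with neither replicates nor read depth no test was made. A missing peak cannot be told from one below the calling threshold. The list holds no expression values, so the cell type could not be checked against markers. Coordinates are on build GRCm38 (mm10), 1-based.

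Sequences are shown for 1 peak of each of 8 genes because they let a reader see which motif letters stood under OCT4 at this pathway and where none did. The peak was the one with a composite match, then one with an octamer, then one with a STAT match, and otherwise the peak nearest to a transcript start. All are written 5′ to 3′ on the plus strand, in lower case. Capitals mark a match to the composite, octamer, SOX core or STAT motif on either strand, and in the last sequence a KLF match. The octamer was ATGCAAAT. The SOX core was CCWTTGT, in which W stands for A or T. No mismatch was allowed in either. The composite consisted of the SOX portion CATTGT, the spacer base T and the octamer, with at most 3 mismatches over its 15 bases, so it can overlap an octamer or a SOX core. The STAT motif was TTCNNNGAA, where N is any base, and reads alike on both strands. A match describes the letters and does not show that a factor was bound. The first pair of sequences comes from the Lifr intron, whose peak 4 held both STAT and octamer letters.
Lifr peak 4, chr15:7115624-7115923: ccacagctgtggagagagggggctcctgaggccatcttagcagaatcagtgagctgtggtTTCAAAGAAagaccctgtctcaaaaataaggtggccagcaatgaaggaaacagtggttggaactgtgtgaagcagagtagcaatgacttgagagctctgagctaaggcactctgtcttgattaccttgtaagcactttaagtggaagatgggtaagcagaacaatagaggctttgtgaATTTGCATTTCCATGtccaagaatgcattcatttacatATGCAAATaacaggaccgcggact
Lifr peak 4, chr15:7115501-7115560: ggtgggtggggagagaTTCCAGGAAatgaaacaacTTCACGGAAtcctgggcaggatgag
The next sequence, upstream of Il6st, holds an octamer with SOX cores beside it.
Il6st peak 4, chr13:112462502-112462701: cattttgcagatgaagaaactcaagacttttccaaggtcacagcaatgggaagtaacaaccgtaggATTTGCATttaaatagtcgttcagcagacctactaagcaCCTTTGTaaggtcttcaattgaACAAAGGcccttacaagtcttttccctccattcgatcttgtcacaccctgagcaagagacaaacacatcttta
Those of Socs3 and Mcl1 hold a STAT match with SOX cores, and a composite overlapping a SOX core.
Socs3 peak 3, chr11:117975583-117975782: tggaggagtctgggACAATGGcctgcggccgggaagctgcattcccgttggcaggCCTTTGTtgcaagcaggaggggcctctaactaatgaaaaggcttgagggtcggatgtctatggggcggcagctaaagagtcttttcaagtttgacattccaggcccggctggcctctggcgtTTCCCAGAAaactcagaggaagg
Mcl1 peak 3, chr3:95663532-95663731: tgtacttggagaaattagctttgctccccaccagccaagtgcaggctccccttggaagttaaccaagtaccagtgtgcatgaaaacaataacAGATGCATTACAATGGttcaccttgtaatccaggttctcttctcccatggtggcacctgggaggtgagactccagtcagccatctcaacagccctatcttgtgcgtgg
Those of Jak1, Stat3, Pim1 and Gbx2 hold none of these motifs in the window shown. For Gbx2 the window was shortened to leave out the 5′ UTR.
Jak1 peak 1, chr4:101300623-101300822: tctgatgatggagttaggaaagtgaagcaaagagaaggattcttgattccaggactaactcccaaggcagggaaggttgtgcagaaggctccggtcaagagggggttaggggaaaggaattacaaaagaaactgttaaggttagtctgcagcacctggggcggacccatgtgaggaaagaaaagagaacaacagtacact
Stat3 peak 3, chr11:100939634-100939833: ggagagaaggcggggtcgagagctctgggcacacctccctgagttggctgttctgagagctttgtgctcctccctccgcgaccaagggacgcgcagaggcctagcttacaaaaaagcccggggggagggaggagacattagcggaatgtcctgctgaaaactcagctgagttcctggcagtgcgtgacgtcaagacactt
Pim1 peak 4, chr17:29492700-29492899: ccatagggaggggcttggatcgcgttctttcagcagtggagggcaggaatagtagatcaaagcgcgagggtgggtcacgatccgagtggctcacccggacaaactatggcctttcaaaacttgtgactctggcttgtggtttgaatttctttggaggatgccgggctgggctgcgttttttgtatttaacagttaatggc
Gbx2 peak 2, chr1:89931180-89931262: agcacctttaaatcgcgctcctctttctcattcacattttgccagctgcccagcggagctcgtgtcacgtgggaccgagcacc
The last sequence, from the widest of the 33 peaks, was chosen after its values were seen, for a KLF motif that recurs at an even spacing.
Il6st peak 3, chr13:112440028-112440131: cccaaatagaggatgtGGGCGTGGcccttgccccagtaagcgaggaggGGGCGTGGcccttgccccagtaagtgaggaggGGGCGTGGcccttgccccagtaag

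All 9 genes had at least 1 OCT4 peak, against 73% of protein-coding genes under the same rule. At least 3 peaks were found at 8 of the 9, against 31.1% of protein-coding genes. Lifr, Socs3 and Pim1 had 5 peaks each, Il6st and Mcl1 had 4, Stat3, Gbx2 and Bcl3 had 3, and Jak1 had 1. The median was 4 peaks per gene, compared with 2 over all protein-coding genes, whose quartiles were 0 and 3. Since the genes were named with results of these data in view, these counts are a description.

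Long genes are searched over a longer stretch, so density was also computed. The stretch searched ranged from 100.1 kb at Mcl1 to 210 kb at Jak1. Socs3 was densest with 4.96 peaks per 100 kb, a density that 3.83% of protein-coding genes reached. Pim1 followed with 4.87 and Mcl1 with 4.00. The other densities were 3.60 at Il6st, 3.05 at Lifr, 2.94 at Gbx2, 2.65 at Bcl3, 2.01 at Stat3 and 0.476 at Jak1, and the median of the genes was 3.05 against 1.00 over all protein-coding genes. The inhibitor Socs3 and the kinase gene Jak1 thus stood at opposite ends of the list, and 71.6% of protein-coding genes were at least as dense as Jak1.

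**Figure D1:**
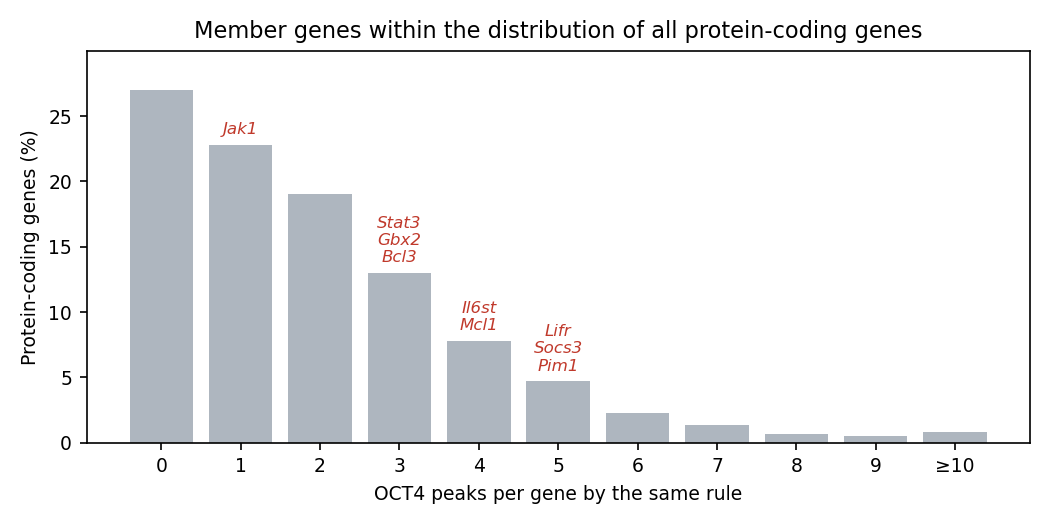
Percent of all 21938 protein-coding genes (y axis) with a given number of OCT4 peaks by the same rule (x axis). Names mark the bar to which each of the 9 genes belongs: Jak1 stands at 1 peak, and the other 8 genes at 3 to 5.

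The receptor genes came first in the pathway and differed in where their peaks lay. Lifr encodes the LIF-binding receptor chain and spans chr15:7090614-7197489 on the plus strand. Its peaks fell into a distal pair, a single upstream peak and an intronic pair. Peaks 1 and 2 lay 33.7 and 32.8 kb upstream of the first start, with midpoints 0.894 kb apart. Peak 3, 445 bp wide, lay 8.50 kb upstream. Peaks 4 and 5 lay in an intron, 25.2 and 26.3 kb into the gene as measured from the first start, and 1.09 kb apart. They were also 13.7 and 12.6 kb upstream of an internal start. The promoters of Lifr in RefSeq, at chr15:7129322-7129621 and chr15:7140292-7140591, lay downstream of all these peaks. Lifr was the only protein-coding gene with a start in the searched stretch.

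Peak 4 of Lifr at chr15:7115413-7116280 was 868 bp wide, the second widest of the 33. It held 2 octamers in opposite orientations with 30 bases between them, 19 and 57 bp from the middle of the peak. One of these was the octamer portion, without mismatch, of a composite match whose 3 mismatches fell in the SOX portion (2) and the spacer (1). The peak also held 3 STAT matches, TTCCAGGAA, TTCACGGAA and TTCAAAGAA, between 159 and 326 bp from the middle. The first of these fits the stricter palindrome TTCCNGGAA, which 1.73% of all peaks hold and which no other member peak held. The octamers were therefore central in this peak and the STAT letters lay to its side. It was the only 1 of the 33 peaks (3.03%) with a STAT match and a composite or octamer match. This pairing was found at a similar share, 3.83%, of all peaks. Peak 3 held another STAT match, TTCAAAGAA, 62 bp from its middle and 103 bases from a SOX core.

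Il6st encodes gp130, the signalling chain shared by receptors of the interleukin-6 family, and spans chr13:112464070-112510086 on the plus strand. All 4 of its peaks lay upstream and 0 in the gene body, at 47.6, 35.6, 24.0 and 1.47 kb from the first start. Peak 1 was in an intron of 2810403G07Rik, and no other protein-coding gene had a start in the stretch. Peak 2, 225 bp wide, held an octamer, and 68.4% of its bases were repeat-masked. Peak 4, 671 bp wide, was the one nearest to the start. Its octamer lay 28.5 bp from the middle, and 2 SOX cores lay 31 and 53 bases beyond it, too far to form the composite.

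Peak 3 of Il6st at chr13:112439183-112440949 was the widest of the 33 at 1767 bp. It held 6 matches to GGGNGTGG, a sequence bound by KLF factors, a STAT match (TTCCCTGAA) 529 bp from the middle and a SOX core. Of the KLF matches, 3 were GGGCGTGG at a spacing of 32 bp close to the middle, as in the last sequence printed. The 32-base units were identical to the next at 31 and 30 of 32 bases, and 0 of their bases were repeat-masked. The part of this run in the width of the peak was not tested.

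Jak1, the kinase that the receptor activates, spans chr4:101152367-101265282 on the minus strand and had the sparsest set. Its only peak, at chr4:101300614-101300831, was 218 bp wide, 35.4 kb upstream of the nearest start and in an intron of Gm12796. It held a match to none of the motifs searched. No other protein-coding gene had a start in the 210 kb searched.

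Stat3, the transcription factor of the pathway, spans chr11:100885098-100939540 on the minus strand. Peak 3 covered its promoter, with the midpoint 0.194 kb upstream of the start and a width of 579 bp. Its GC content was 58.4%, against a median of 46.4% over all peaks, and it held none of the motifs searched. Peak 2 lay 12.7 kb upstream and held a KLF match, GGGCGTGG, 5.5 bp from its middle. Peak 1 lay 18.1 kb upstream in the 3′ UTR of Cavin1, a start of which was closer at 12.9 kb. No Stat3 peak held a composite, octamer, SOX core or STAT match.

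Socs3 encodes the feedback inhibitor that STAT3 induces and that blocks the receptor complex. The gene spans chr11:117966079-117970047 on the minus strand. Its peaks lay 26.2, 6.51, 5.60 and 2.71 kb upstream, and the last at 3.29 kb downstream of a start, just past the 3′ end of the gene. The 4 closest were thus gathered on both sides of a gene of a few kilobases. Peak 1 lay in an intron of Pgs1, whose start was closer at 4.51 kb. Peak 3 at chr11:117975446-117975851 held 2 SOX cores, 7.5 and 48.5 bp from its middle, and the STAT match TTCCCAGAA 116 bp from it. Peak 4 held 2 copies of AAGGTCA, the core bound by the nuclear receptor ESRRB, and peaks 1 and 5 held a SOX core each.

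The Socs3 promoter is known for its STAT-binding elements. The RefSeq promoter window, from 250 bases before to 50 after the start, held the STAT match TTCTTAGAA and overlapped no OCT4 peak. It held 0 matches to the stricter TTCCNGGAA, and whether TTCTTAGAA is one of the known elements was not tested. The bases just upstream of the Socs3 start at 0.861 kb past the annotated 5′ end lay outside this window. A STAT match there was therefore not counted. Of 11 such windows for the 9 genes, that of Socs3 was the only 1 with a STAT match, against 8.30% of 32851 promoters. The windows that a peak overlapped, 1 each at Stat3, Pim1 and Gbx2, held neither a STAT match nor an octamer.

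Pim1, a serine/threonine kinase gene induced by STAT3, spans chr17:29490753-29496112 on the plus strand. Of its 5 peaks, 3 lay far upstream at 39.4, 26.7 and 25.1 kb, inside the noncoding genes Gm26885 and AC163629.2, and 2 lay in its introns. Peak 4, 335 bp wide, sat 0.237 kb before an internal start and overlapped the promoter window there, and peak 5 lay 1.16 kb past a start. The only motif found in the 5 peaks was CTTTGAT, the sequence bound by TCF factors, in peak 4. Pim1 therefore combined 1 of the highest peak counts with no composite, octamer, SOX core or STAT match.

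Gbx2, a homeobox gene that STAT3 induces in ES cells, spans chr1:89927956-89931179 on the minus strand. All 3 of its peaks lay within 10 kb of a start. Peak 2 covered the start itself, with its midpoint 0.016 kb past it in the 5′ UTR and also inside the gene D130058E05Rik. It was the most GC-rich of the 33 at 64.6%, with 11.1 CpG per 100 bp against a median of 1.06 over all peaks. Peak 1 lay 3.81 kb upstream and peak 3 lay 6.21 kb downstream. Peak 3 held a SOX core, CCATTGT, and peaks 1 and 2 held none of the motifs.

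Bcl3 encodes an atypical member of the IκB family and spans chr7:19808462-19822770 on the minus strand, in the most gene-rich stretch, with 5 protein-coding genes. Peaks 1 and 2 were an intronic pair with midpoints 0.611 kb apart, on both sides of an internal start. Peak 1 held the STAT match TTCTCTGAA, 203 bp from its middle, and a KLF match. Peak 2 held a composite with the SOX portion and spacer intact and all 3 mismatches in the octamer, and 49.8% of it was repeat-masked. This is the reverse of the Lifr composite, whose octamer was intact. Peak 3 lay 26.7 kb from a start, in an intron of Cblc, and a Cblc start was closer at 2.50 kb.

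Mcl1 encodes an anti-apoptotic relative of BCL2 and spans chr3:95658788-95663176 on the plus strand. Peaks 1 and 2 formed the closest pair of the 33, with midpoints 0.464 kb apart, at 5.66 and 5.19 kb upstream, and 79.2% of peak 1 was repeat-masked. Peak 3 at chr3:95663389-95664131 lay past the 3′ end of the gene and was 743 bp wide. It held 2 of the 4 composite matches found in all 33 peaks, each with 2 mismatches in the octamer and the third in the spacer or the SOX portion. Peak 4 lay 43.3 kb downstream, closer to a start of Adamtsl4 at 14.2 kb.

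**Figure D2:**
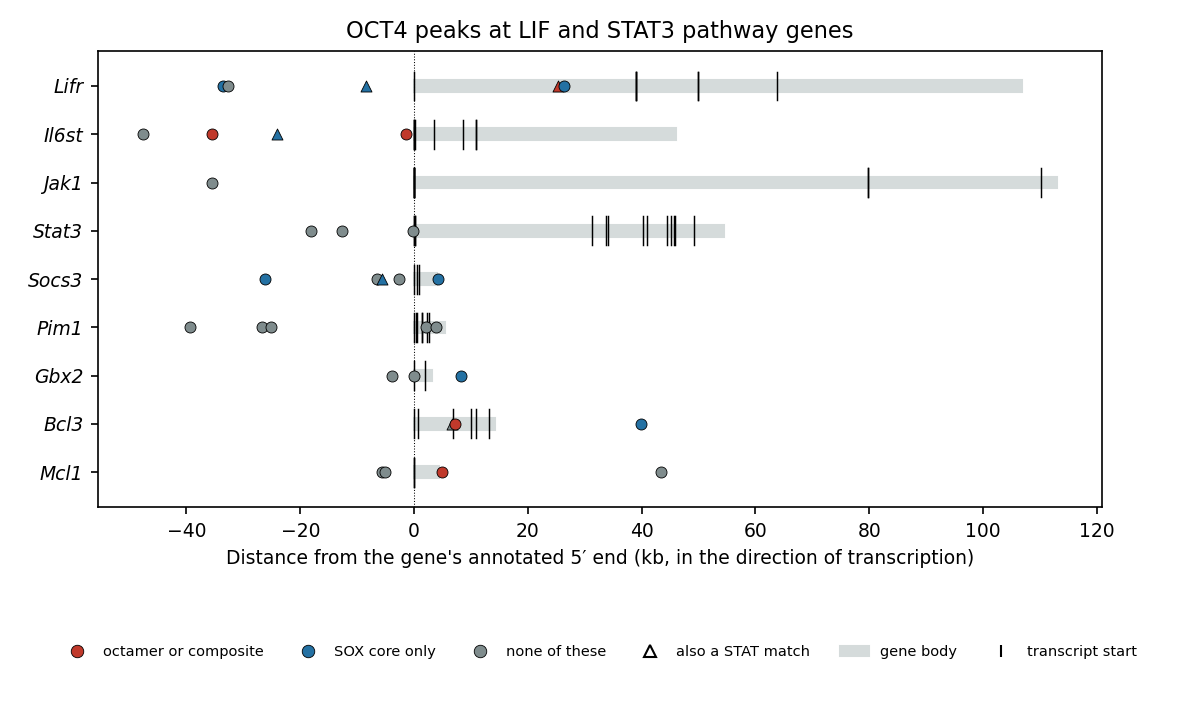
Midpoints of the 33 OCT4 peaks by gene (y axis) along the distance in kb from the annotated 5′ end, positive in the direction of transcription (x axis). Grey bars are gene bodies, ticks are transcript starts, colours give the octamer, composite or SOX core matches and triangles a STAT match. Composite or octamer peaks appear at Lifr, Il6st, Bcl3 and Mcl1, and Pim1, Stat3 and Jak1 show grey symbols alone.

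Across the 33 peaks, 21 lay upstream of the gene start (63.6%), compared with 41.7% of the 43496 pairs of a peak and a protein-coding gene formed by the rule. Inside the gene body lay 7 (21.2%), against 29.7% of pairs. Within 10 kb of a start of the gene lay 17 (51.5%), against 28.8% of pairs, and the other 16 lay at 10 to 50 kb. The nearest transcript start of any protein-coding gene was the gene's own for 29 (87.9%), against 46.8% of pairs. The stretches searched for the 9 genes held a median of 2 protein-coding genes, against 3 over all, and the part of this in these shares was not tested. By midpoint, 18 of the 33 were intergenic (54.5%), counting noncoding genes as genes, against 46.1% of all peaks, 11 were intronic (33.3%, against 45.5%) and 0 lay in a coding exon, where 1.5% of all peaks lay. These classes were compared with all peaks and not with pairs under the same rule. The list also holds peaks far from coding starts, with an upper quartile of 64.5 kb.

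Promoter-proximal peaks lay within 1 kb of any annotated transcript start of a protein-coding gene, internal starts included. They numbered 5 (15.2%), against 13.8% of all peaks and, for starts of the gene itself, 9.28% of pairs under the same rule. These were peak 3 of Stat3, peak 4 of Pim1, peak 2 of Gbx2 and peaks 1 and 2 of Bcl3, so 4 of the 9 genes had one. The Bcl3 peaks lay by an internal start, 6.65 and 7.26 kb into the gene, and no peak overlapped its RefSeq promoter window. The 95% Wilson interval for the member share ran from 6.65% to 30.9% and held both shares. Such intervals cover counting error only, and peaks of 1 gene share a locus.

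Member peaks lay close to one another. Another peak midpoint was within 10 kb for 21 of the 33 (63.6%, interval 46.6% to 77.8%), against 33.9% of all peaks and 36% of pairs under the same rule. For 10 of them (30.3%, interval 17.4% to 47.3%) another peak edge was within 1 kb, against 7.78% of all peaks and 7.93% of pairs. These 10 formed 5 pairs, at Lifr (peaks 1 and 2, and 4 and 5), Socs3 (2 and 3), Bcl3 (1 and 2) and Mcl1 (1 and 2). Close peaks count each other, so they are not independent and both intervals are too narrow. The genes also had a higher peak density, a median of 3.05 per 100 kb against 1.00. The part of this in the closeness was not tested. The median distance to the next peak was 3.82 kb, against 18.2 kb over the list and 16.4 kb over pairs. The rule itself limits how far a peak can lie from a gene, so distances to a start are compared with pairs alone. The median distance to a start of the gene was 8.50 kb, against 22.01 kb over pairs.

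The 33 peaks were of about the width of the list and had more CpG in their upper quartile. Their median width was 335 bp, from 211 to 1767 bp, against 352 bp, and the quartiles were 269 and 431 bp against 267 and 471 bp. Median GC content was 47.9% against 46.4%, with upper quartiles of 53.0% and 50.1%. The median CpG content was 1.32 per 100 bp against 1.06, and the upper quartiles were 3.28 and 1.88. Over pairs under the same rule the CpG median was 1.28 and the upper quartile 2.49. In addition, the median repeat-masked share of a peak was 9.10% against 13.0%. Over 50% of the bases were repeat-masked in 3 peaks (9.09%), against 15.6% of all peaks. Because merging joins overlapping peaks, a width may describe a union of calls and is no measure of strength.

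**Figure D3:**
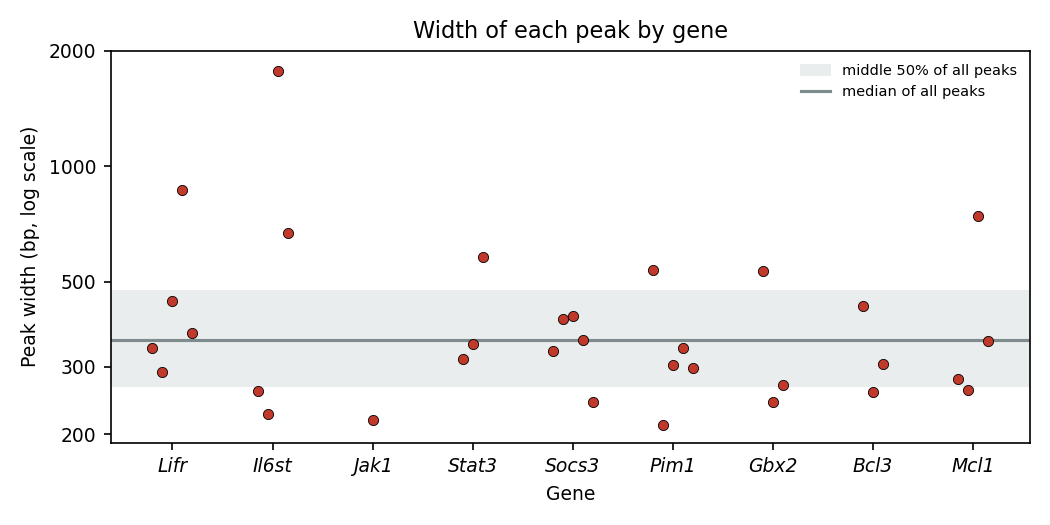
Width of each of the 33 OCT4 peaks in bp (y axis, log scale) by gene (x axis). The line is the median of all 26704 peaks (352 bp) and the band their middle 50% (267 to 471 bp). Peak 3 of Il6st at 1767 bp and peak 4 of Lifr at 868 bp stand highest.

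The motif shares of the 33 peaks were near those of the whole list. A composite was found in 3 (9.09%, interval 3.14% to 23.6%), against 11.5%, and an octamer in 3 (9.09%), against 11%. Together, 5 peaks at Lifr, Il6st, Bcl3 and Mcl1 held either (15.2%), against 19.6%. A SOX core was found in 11 (33.3%, interval 19.8% to 50.4%), against 30.3%. At least 1 of the 3 was found in 14 (42.4%), against 43.7%. With 33 peaks the intervals are wide, and every one of these held the share of the list.

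The STAT motif was also found at these genes at about the share of the list. It was found in 5 (15.2%, interval 6.65% to 30.9%), against 14.6% of all peaks, and these were peaks 3 and 4 of Lifr, peak 3 of Il6st, peak 3 of Socs3 and peak 1 of Bcl3. In the central 200 bp a STAT match remained in 1 of the 33 (3.03%, interval 0.537% to 15.3%), peak 3 of Lifr, against 7.36% of all peaks. Windows of 200 bp centred 5 kb to each side of the peaks of the whole list held it in 6.56%. For the octamer the same shares were 9.09% of the 33, 7.98% of all peaks and 1.24% of flanking windows, and for the SOX core they were 21.2%, 20.5% and 6.94%. The octamer and SOX core were thus more frequent at the middle of the member peaks, and of all peaks, than in the flanking windows of the whole list. Flanks of the 33 peaks alone were not counted. The STAT motif, at 7.36% of all peaks and 6.56% of flanking windows, differed less between these places.

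Motifs of other ES cell factors were also near the list. The ESRRB core was in 4 peaks (12.1%), against 14.9%. The KLF motif was in 6 (18.2%), against 17.6%, and the TCF motif in 4 (12.1%), against 9.05%. None of the 7 motifs was found in 13 (39.4%, interval 24.7% to 56.3%), against 32.3% of all peaks, and 4 of these 13 were peaks of Pim1.

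**Figure D4:**
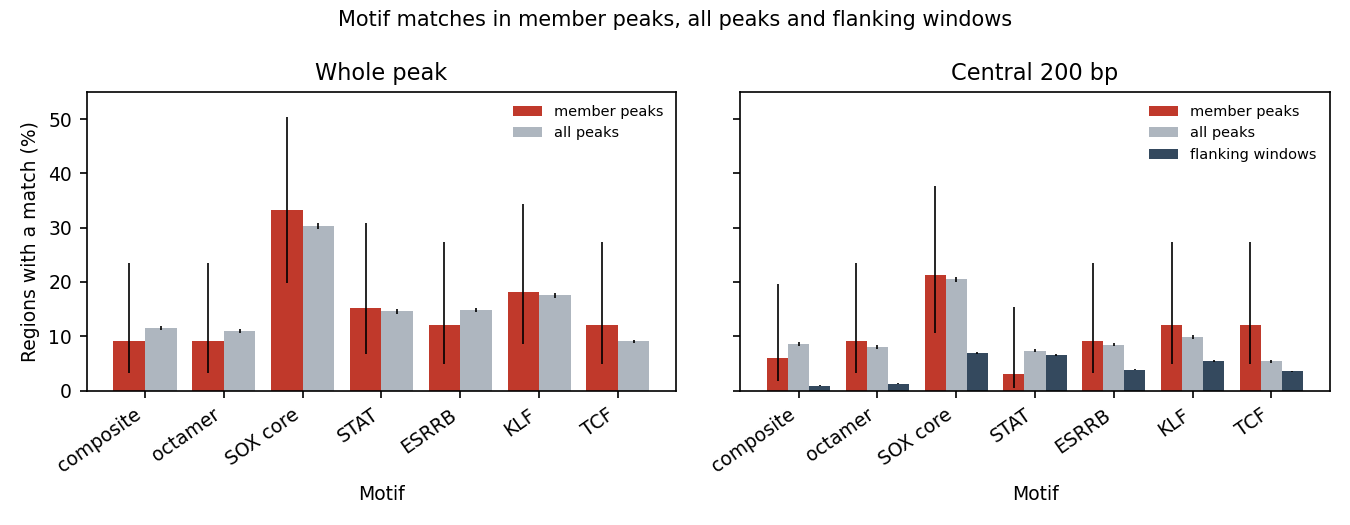
Percent of regions with a motif match (y axis) for 7 motifs (x axis), over the whole peak (left) and its central 200 bp (right), in the 33 member peaks, all 26704 peaks and, on the right, flanking windows of all peaks. Lines are 95% Wilson intervals, which cover counting error only. The member intervals span the share of all peaks for each motif, and the central octamer and SOX core shares stand above those of flanking windows.

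Another 43 genes of the pathway were counted by the same rule, of which 37 had at least 1 peak, with a median of 3. Over all protein-coding genes, 73% had at least 1 peak and the median was 2. All 4 receptor genes, all 3 other JAK family kinases and all 9 other target genes had one, as did 6 of 7 ligands, 4 of 6 STAT factors and 11 of 14 inhibitors. Every peak counted for Ctf1, Il11, Il11ra1, Tyk2, Stat2, Cish, Pias3, Pias4 and Cebpb had a start of another protein-coding gene as its nearest. The medians were 3.5 peaks for receptors, 3 for kinases and targets, 2.5 for STAT factors, and 2 for ligands and inhibitors. Stat4 had 6 peaks in a stretch of 218 kb, the nearest 0.099 kb from a start. Il6ra, the receptor of interleukin-6, had 5, the nearest 16.6 kb from a start, and Socs2, an inhibitor related to Socs3, had 5, the nearest 0.044 kb from a start. The gene's own start was the nearest protein-coding one for 4 of the 6 peaks at Stat4, 2 of 5 at Il6ra and 3 of 5 at Socs2. Clcf1, Stat5a, Stat5b, Socs1, Socs4 and Socs5 had none. Stat5a and Stat5b lie on chromosome 11 beside Stat3. The 3 peaks of Stat3 all lay upstream of its start and outside the stretches searched for Stat5a and Stat5b.

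The peaks of these 43 genes, 100 in all and 0 of them shared with the 9 genes, had motif shares of the same order. The composite was in 12% of them, against 11.5% of all peaks, and the octamer in 13%, against 11%. The SOX core was in 22%, against 30.3%, and the STAT motif in 18%, against 14.6%. By peak count, inhibitors of the SOCS family ranged from 5 peaks at Socs3 and Socs2 to none at Socs1, Socs4 and Socs5. The other Socs genes lay in between.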

How the data were processed

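OCT4 ChIP-seq of 2TS22C ES cells was used. The authors aligned reads to mm10 with STAR 2.6.1c, removed duplicates with Picard, called peaks with MACS2 2.1.1.20160309 in paired-end mode and merged peaks with BEDTools, per the paper's methods and the submitters' processing notes. The deposited values are coordinates in bp and carry no other unit or score. Which of the 4 OCT4 libraries were merged, and whether replicates were pooled before calling, is not stated, so depth is unknown.

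Here, midpoints were compared with GENCODE M21 genes, and motifs and sequences were read from the RefSeq GRCm38.p6 genome, with 0 peaks past a chromosome end. Promoter windows came from the RefSeq table of the same build. Flanking windows numbered 52723. All 9 genes were named, with every peak accounted for. Of the other pathway genes, those with 5 or more peaks, with none, or with no peak nearest to their own start were named. The genes and lists were chosen with earlier results of these data known. No test was made. Shares have 95% Wilson intervals. The motif search was tested on simulated data. Alternatives changed the distance, width, annotation and motif settings. Analyses ran in Python 3.11.15 (SciPy 1.17.1, NumPy 2.4.6), and plots were drawn with matplotlib 3.10.9. BRG1 and H3K27ac libraries were not analysed here. The sequence of the Bcl3 peak is not reported here.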

Additional observations from a re-analysis of the deposited data

How the results depend on the processing

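Of 28 alternative values over 7 results, 21 stayed within 1.5 times the reported count, the Wilson interval of the reported share or the order-statistic interval of the median width. The 33 peaks became 19 with a distance of 10 kb and 21 with peaks of at least 300 bp. Jak1 lost its only peak under both, which left 8 of 9 genes with a peak. At 10 kb the median was 2 peaks per member gene against 0 over all protein-coding genes, and at 100 kb it was 6 against 3. The composite share of 9.09% became 0% with at most 2 mismatches, 36.4% with at most 4 and 24.2% with the spacer free, and over all peaks these shares were 2.21%, 35.9% and 22.2%. The STAT share of 15.2% became 3.03% both in the central 200 bp and with TTCCNGGAA, against 7.36% and 1.73% of all peaks. By construction, a looser motif gives more matches, and a stricter motif or a shorter stretch gives fewer. No paired analysis was possible because peaks were not given library by library. With no peak height or depth, absence of a peak or motif match sets no limit on binding.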
